A study of Homo sapiens with 12 samples.

Results

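Cyclin-dependent kinase (CDK) inhibitors are the proteins that stop CDKs from driving a cell through its cycle, and the 7 genes that encode them in humans are described here in K562 cells depleted of PHF19. The members were listed by name as a gene family, with earlier results of these data known, and all 7 were found among the 27348 genes of the deposited RNA-seq table, 3 of the Cip/Kip family (CDKN1A, CDKN1B and CDKN1C) and 4 of the INK4 family (CDKN2A, CDKN2B, CDKN2C and CDKN2D). Proteins of the Cip/Kip family bind cyclin and kinase together and act on CDK2 complexes above all, whereas INK4 proteins bind CDK4 and CDK6 and keep D-type cyclins off them. Held in check, these kinases leave the RB pocket proteins free to bind E2F factors, and the genes of DNA replication stay off. Several of these genes, CDKN2A the best known, are classic targets of Polycomb repression.

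K562 is an established line of chronic myeloid leukemia origin that carries the BCR-ABL fusion, and it is known to lack part of the short arm of chromosome 9 where CDKN2A and CDKN2B lie. PHF19 is a Polycomb-like protein that brings the repressive complex PRC2 to chromatin, and MTF2 is its homolog. Cells carried a lentiviral shRNA against the long isoform of PHF19 (sh#1 or sh#2) or the empty vector (shCT), all selected with puromycin. The controls thus shared vector and drug but carried no hairpin. Effects of carrying any hairpin and those of PHF19 loss cannot be told apart. RNA-seq covered 2 libraries of sh#1, 2 of sh#2 and 2 of shCT, and peaks were used from 1 ChIP-seq library each of PHF19 in shCT cells, MTF2 in sh#2 cells and MTF2 in shCT cells. The expression table compares both shRNAs with shCT by DESeq2 and holds a mean over all 6 libraries, with no value for each library.

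A promoter of each of 4 members is shown, picked as CpG-rich windows at which the deposited peaks differ. PRC2 and its Polycomb-like partners are known to settle on CpG-rich DNA. Each window runs from 250 bases before to 50 bases after a start site of RefSeq (GRCh38.p14), was placed on GRCh37 by its sequence, and is written 5′ to 3′ on the strand of the gene with each CpG in capitals. The CDKN1A window is chr6:36646241-36646540 (plus strand), that of CDKN2D is chr19:10679606-10679905 (minus strand), that of CDKN1B is chr12:12870052-12870351 (plus strand), and that of CDKN2C, at the middle of its 3 annotated starts, is chr1:51434128-51434427 (plus strand).
CDKN1A: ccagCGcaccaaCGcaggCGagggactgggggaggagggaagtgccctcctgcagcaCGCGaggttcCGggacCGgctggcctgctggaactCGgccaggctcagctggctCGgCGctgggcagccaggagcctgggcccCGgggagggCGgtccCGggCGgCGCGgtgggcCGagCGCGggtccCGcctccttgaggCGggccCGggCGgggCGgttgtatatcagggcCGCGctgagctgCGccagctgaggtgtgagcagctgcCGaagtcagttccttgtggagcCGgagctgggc
CDKN2D: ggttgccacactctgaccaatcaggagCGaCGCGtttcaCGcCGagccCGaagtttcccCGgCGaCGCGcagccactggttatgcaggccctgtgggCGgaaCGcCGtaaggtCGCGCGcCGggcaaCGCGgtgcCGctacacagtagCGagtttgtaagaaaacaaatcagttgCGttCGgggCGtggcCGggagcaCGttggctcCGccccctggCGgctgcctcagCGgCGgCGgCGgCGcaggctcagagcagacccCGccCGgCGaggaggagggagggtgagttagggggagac
CDKN1B: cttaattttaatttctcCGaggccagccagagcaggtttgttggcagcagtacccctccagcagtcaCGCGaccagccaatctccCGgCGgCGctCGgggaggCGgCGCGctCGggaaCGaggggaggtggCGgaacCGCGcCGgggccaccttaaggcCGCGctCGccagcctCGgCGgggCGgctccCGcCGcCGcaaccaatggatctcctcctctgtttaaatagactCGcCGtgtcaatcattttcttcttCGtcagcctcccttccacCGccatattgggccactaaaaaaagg
CDKN2C: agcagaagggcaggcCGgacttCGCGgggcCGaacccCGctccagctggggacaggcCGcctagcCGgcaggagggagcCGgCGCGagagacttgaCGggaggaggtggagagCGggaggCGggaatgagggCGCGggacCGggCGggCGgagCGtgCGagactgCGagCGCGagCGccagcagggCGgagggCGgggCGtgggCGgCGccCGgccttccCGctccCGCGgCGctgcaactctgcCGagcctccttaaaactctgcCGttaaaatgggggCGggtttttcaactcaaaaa

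The CDKN1A window held 29 CpGs and lay with all 300 bases under a peak in each of the 3 lists. That of CDKN2D held 36 CpGs, with 300 bases under the PHF19 peak and 0 under MTF2 peaks. The CDKN1B window also held 29 CpGs and that of CDKN2C 37, and neither had a base under any peak. The window at the main start of CDKN2C, by contrast, held 11 CpGs and had no base under a peak either. The median over all 35116 RefSeq windows was 14 CpGs, and 75.8% of windows held fewer than the 29 of CDKN1A and CDKN1B. The windows of CDKN2A held 26 and 28 CpGs and that of CDKN2B 25, while both outer starts of CDKN2C, with 8 and 11, were the only member windows below the median. The letters GGGCGG, the core of the GC box bound by Sp1, stood on either strand in 7 of the 9 member windows, and in 45.0% of all windows. TATAAA was in 0 of 9 member windows (11.5% of all), and the E-box CACGTG was in the outer windows of CDKN2C alone among the members (7.26% of all). CDKN1C was not matched to a window.

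The first question was which inhibitors these cells express at all. Of the 7 members, 5 had reads and 2, CDKN2A and CDKN2B, were listed at 0. Per kb of the main transcript, CDKN2C, which encodes the INK4 protein p18, had the highest level of the members, with 1953 normalized counts per kb (mean normalized count 1944), above 94.3% of the genes placed on the genome. CDKN1C, which encodes p57 from an imprinted locus, had 578 normalized counts per kb (mean 1025), and CDKN1B, which encodes p27, had 570 (mean 1375), above 83.0% and 82.8% of genes. CDKN1A had 133 normalized counts per kb (mean 281) and stood above 64.8% of genes. CDKN2D, which encodes the INK4 protein p19, was the lowest of the expressed members at 62.7 normalized counts per kb (mean 89.3), above 58.4% of genes. The order is that of means over both groups of cells, and no spread between libraries is known, so CDKN1B and CDKN1C cannot be set apart.

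In the comparison of PHF19-depleted cells with shCT cells, 0 of the 5 expressed members passed an adjusted p of 0.05 in DESeq2, where 0.188% of the 17599 genes with an adjusted p were called higher and 0.0341% lower. At an unadjusted p of 0.05, 1 of 5 members (CDKN1A) was higher and 0 were lower, against 4.61% of the 14679 genes tested with a mean of at least 10 higher and 2.64% lower. The fold change was above 0 on the log2 scale for 4 members and below 0 for 1, with a median of 0.38, and it was above 0 for 49.2% of all genes tested. The 2 genes listed at 0 have no fold change.

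CDKN1A, whose protein p21 holds cells in G1 by inhibiting CDK2, had the largest value of the members. Its log2 fold change was 1.01 (standard error, SE, 0.28, 95% interval 0.47 to 1.56), a 2.01-fold higher level in sh#1 and sh#2 cells than in shCT cells with an interval of 1.38 to 2.94-fold. By its Wald statistic it ranked 51 from the top of 14680 genes with a mean of at least 10. The unadjusted p was 0.000277 and the adjusted p 0.0800 in DESeq2, so CDKN1A passed at 0.1 and missed at 0.05. Genes with a mean between 100 and 1000, the range of CDKN1A, had a median log2 fold change of 0.01, and their median standard error was 0.27. A lncRNA that starts at the same promoter on the opposite strand, DINO, shares 951 bp with the CDKN1A gene and averaged 0.359 normalized counts over the 6 libraries. Whether counting used strand is not stated, so to which gene reads from the shared bases were counted is not known.

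The other members of the Cip/Kip family did not pass. CDKN1B, whose protein p27 binds cyclin E and CDK2, had a log2 fold change of 0.38 (SE 0.21, 95% interval -0.03 to 0.78, unadjusted p = 0.0673, adjusted p = 0.821 in DESeq2). Its interval runs to a 1.72-fold higher level in PHF19-depleted cells. CDKN1C had a log2 fold change of -0.0038 (SE 0.33, 95% interval -0.66 to 0.65, adjusted p = 0.999 in DESeq2). The estimate of CDKN1C is thus at 0, with changes up to 1.57-fold in either direction inside its interval. The range of means that holds both genes and CDKN2C, 1000 to 10000, had a median log2 fold change of -0.07 over 5752 genes.

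Of the INK4 members that were measured, CDKN2C had a log2 fold change of 0.33 (SE 0.25, 95% interval -0.16 to 0.81, adjusted p = 0.953 in DESeq2). CDKN2D had 0.38 (SE 0.36, 95% interval -0.32 to 1.09, adjusted p = 0.980 in DESeq2). CDKN2D is the least precise of the expressed members, and genes at its level, with means of 10 to 100, had a median log2 fold change of 0.22 and were above 0 in 68.9% of cases. All intervals but that of CDKN1A held 0. Differences between members were not tested, because the table gives no covariance between genes.

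**Figure D1:**
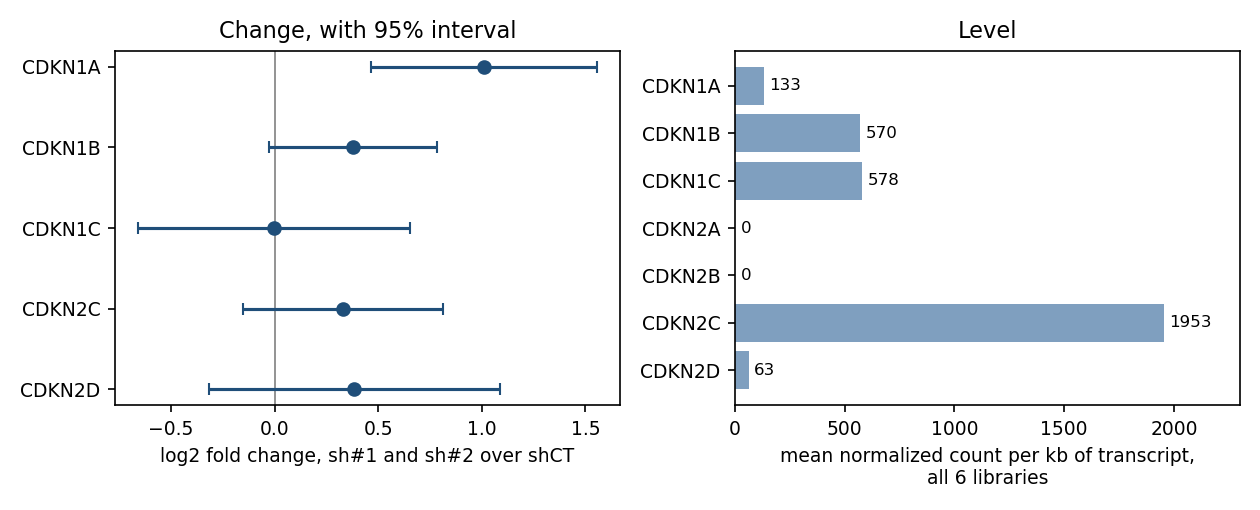
Left, log2 fold change of the 5 expressed CDK inhibitors in sh#1 and sh#2 cells over shCT cells (points) with 95% intervals (bars). Right, mean normalized count per kb of the main transcript over all 6 libraries for the 7 members. The interval of CDKN1A, 0.47 to 1.56, is the only one that leaves out 0, and CDKN2A and CDKN2B stand at 0.

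**Figure D2:**
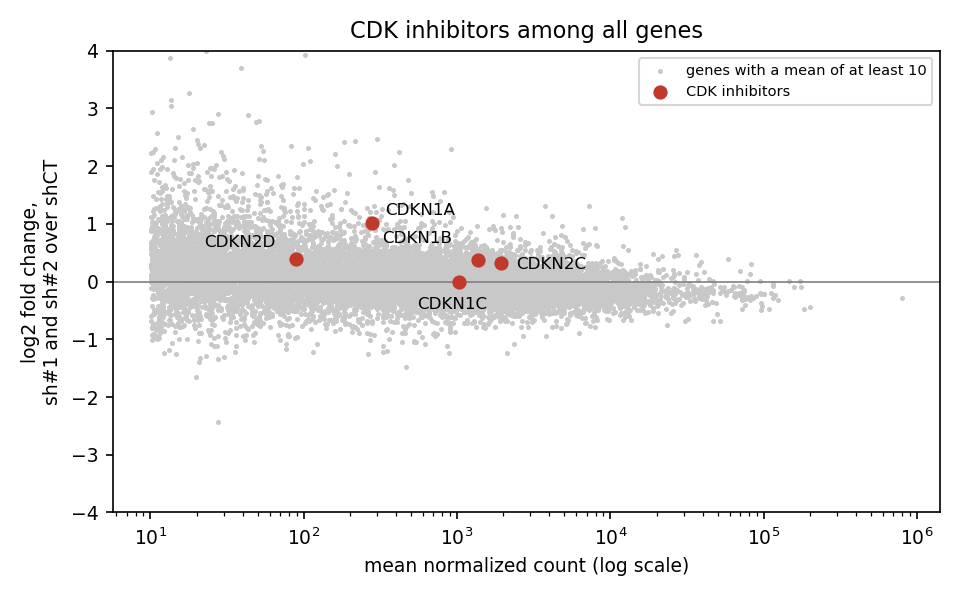
Log2 fold change (sh#1 and sh#2 over shCT) against the mean normalized count on a log axis for genes with a mean of at least 10 (grey) and the 5 expressed CDK inhibitors (red). A further 5 genes lie outside the plotted range. CDKN1A stands toward the upper edge of genes at its level, and the cloud drifts from a median of 0.22 at means of 10 to 100 to -0.17 at 10000 and above.

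PHF19 itself had a log2 fold change of -0.53 (SE 0.22, adjusted p = 0.544 in DESeq2), a value over all its transcripts and not the long isoform alone, and MTF2 had -0.01 (SE 0.19). All 10 markers of the erythroleukemic identity of K562 were expressed, with means of 632 to 171752 normalized counts. Among them TAL1, an erythroid transcription factor, had a log2 fold change of 0.46 (unadjusted p = 0.0463, adjusted p = 0.746 in DESeq2). TFRC, the transferrin receptor, had -0.65 (unadjusted p = 0.00117, adjusted p = 0.177 in DESeq2). Neither passed an adjusted p of 0.05. Of 8 markers of other blood cells, 1 (MS4A1) was at 0 and the highest mean was 76.8 normalized counts, while CD3E, a T cell gene, had a mean of 13.6 and a log2 fold change of 3.15 (unadjusted p = 0.000364 in DESeq2). The adjusted p of CD3E was 0.0903 in DESeq2, and genes at its level, with means of 10 to 100, had a median log2 fold change of 0.22. Whether the expression of these markers has a part in the values of the CDK inhibitors was not tested. The replicates of each group were independent experiments, and in bulk RNA fewer cells of a kind and less RNA per cell cannot be told apart.

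All deposited peaks of the 3 lists, without the study's further minimum of tags for PHF19, were then looked for. The region ran from 2.5 kb upstream of each start to the end of each gene. PHF19 peaks in shCT cells were at 2 of 7 members, CDKN1A and CDKN2D (10.2% of 24053 genes). MTF2 peaks were at CDKN1A and CDKN1C both in sh#2 cells (2 of 7 members, 18.0% of genes) and in shCT cells (2 of 7 members, 13.5% of genes). CDKN1A alone had a peak in every list. With 7 genes, nothing particular to the family can be read from these shares, and each condition is 1 library, so that no test between conditions can be made.

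At CDKN1A the PHF19 peak covered chr6:36643476-36648854, 5379 bp with a score of 214.76, and ranked 361 of 5621 PHF19 peaks. It ran from 3.02 kb before the start over the first exon (85 bp, noncoding) and 2279 bp of the first intron, and reached none of the coding sequence. In sh#2 cells the MTF2 peak began 3.12 kb before the start and ended 0.976 kb after it. In shCT cells it lay almost on top of the PHF19 peak, from 3.01 kb before to 2.52 kb after the start, with 5378 of its 5533 bp shared. The edges before the start were thus alike, and the part over the first intron was 892 bp in sh#2 cells against 2434 bp in shCT cells.

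The MTF2 domain at CDKN1A was therefore shorter after PHF19 depletion, with 4098 bp in sh#2 cells and 5533 bp in shCT cells, a ratio of 0.741. Most genes had a ratio over 1. Among 3030 genes with an MTF2 peak in both lists the median ratio of covered bases was 1.80, and 239 genes (7.89%) had a ratio under 1. CDKN1A ranked at the 1.95 percentile of these ratios. Its score was 98.18 in sh#2 cells, under that list's median of 111.95, and 116.57 in shCT cells, over that list's median of 86.6. The sh#2 list holds more and wider peaks as a whole, with 18287 peaks over 63.2 Mb in sh#2 cells against 12502 over 29.0 Mb in shCT cells, and whether depth, the peak threshold or scaling to the fly spike-in has a part in the difference at CDKN1A was not tested.

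PHF19 had a further cluster of peaks upstream of CDKN1A where MTF2 had none. The strongest covered 5261 bp from 22.4 to 17.1 kb upstream (chr6:36624085-36629345) with a score of 290.75, rank 172 of the PHF19 list and so above the promoter peak itself. A smaller peak ended 22.7 kb upstream and another lay 31.5 to 30.2 kb upstream. None of the 3 overlapped an MTF2 peak of either list, as was the case for 39.0% of all deposited PHF19 peaks. The study kept only PHF19 peaks above a minimum number of tags, and which of the deposited peaks these are is not known. The gene start nearest to the strongest was that of PANDAR, a lncRNA of the p21 locus, with a mean of 81.6 normalized counts and a log2 fold change of -0.29 (SE 0.33, adjusted p = 0.992 in DESeq2). Downstream, 24.7 to 37.7 kb past the start, 2 MTF2 peaks in sh#2 cells had no counterpart in shCT cells and lay at RAB44, which was listed at 0.

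CDKN2D had a deposited PHF19 peak at its start and no MTF2. Its PHF19 peak, chr19:10678617-10679911, covered 1295 bp across the start, with 467 bp of the first exon, 141 bp of them coding. At a score of 68.73 it ranked 3097 of 5621, just below the median of 72.28, against rank 361 at CDKN1A. The methods accepted only PHF19 peaks above a minimum number of tags, which the deposited list does not give, so whether the CDKN2D peak was among them is not known. The nearest MTF2 peak was 28.1 kb away in sh#2 cells and 49.1 kb away in shCT cells.

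CDKN1C had MTF2 without PHF19, and inside the gene rather than at its start. The MTF2 peak in sh#2 cells (chr11:2904563-2906053) covered 1491 bp and that in shCT cells (chr11:2905084-2906099) covered 1016 bp, a ratio of 1.47 that falls at the 34.5 percentile of all such genes. Both lay within the main transcript, 0.952 to 2.44 kb past the start in sh#2 cells and 0.906 to 1.92 kb past it in shCT cells, over exons 2 to 4. Their scores were 104.52 in sh#2 cells and 66.88 in shCT cells, both under the median of their lists. The nearest PHF19 peak was 334 kb away.

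CDKN1B and CDKN2C, above 82.8% and 94.3% of genes in level per kb, had no peak of any list near them. The nearest MTF2 peak to CDKN1B was 188 kb away in sh#2 cells and 411 kb away in shCT cells, and the nearest PHF19 peak 6.06 Mb away. For CDKN2C the distances were 373 kb in sh#2 cells and 146 kb in shCT cells for MTF2, and 149 kb for PHF19. Set beside the RNA, the member with the largest log2 fold change, CDKN1A, was the only member with both proteins at its promoter, and the other 4 expressed members ranged from -0.0038 to 0.38 with a single protein (CDKN1C, CDKN2D) or neither (CDKN1B, CDKN2C). That order is over 5 genes and carries no test.

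**Figure D3:**
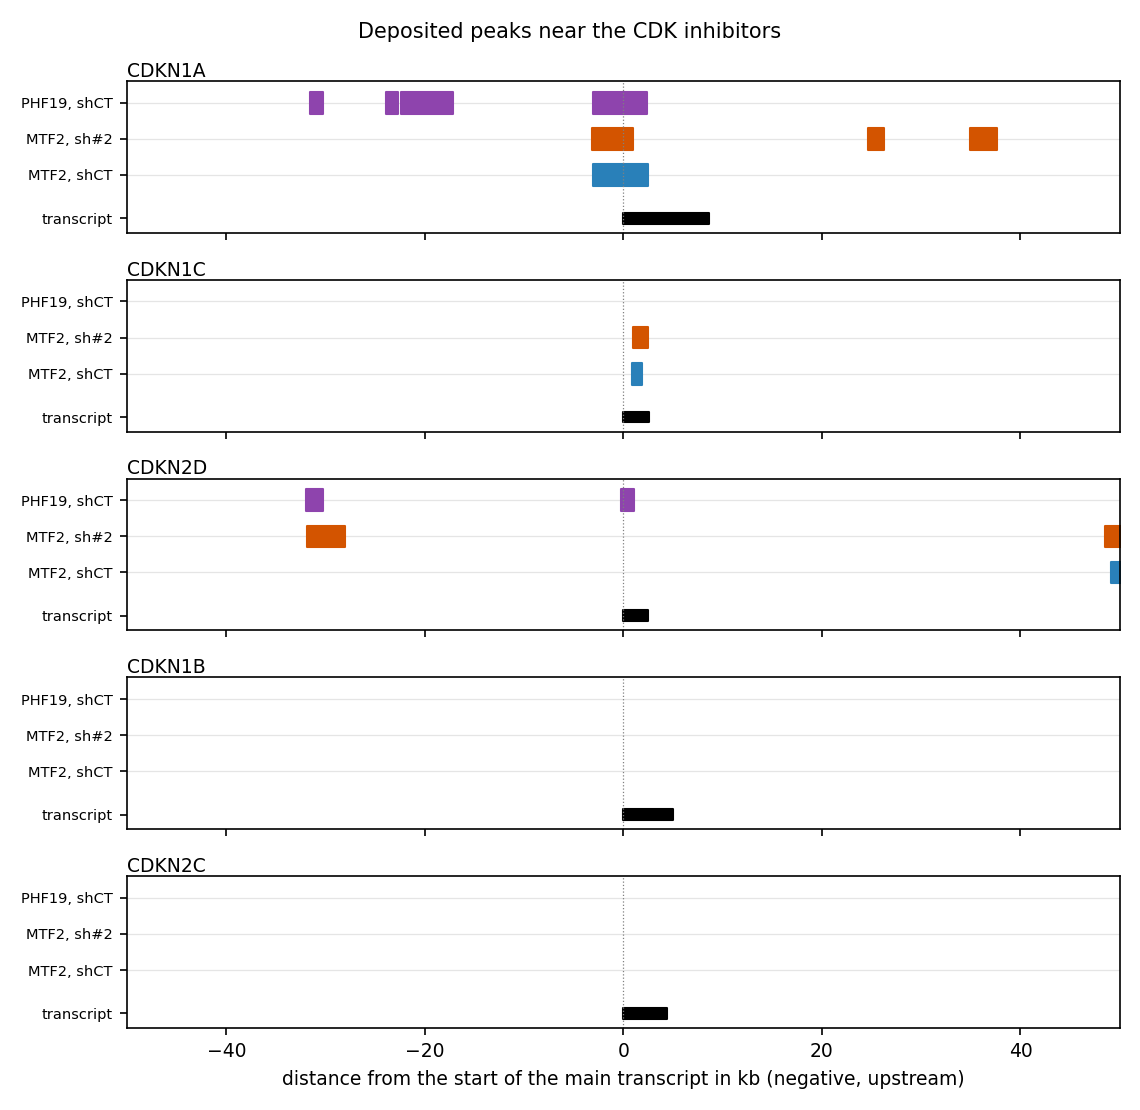
Deposited peaks within 50 kb of the start of 5 CDK inhibitors, by distance from the start of the main transcript in kb, with PHF19 in shCT cells (purple), MTF2 in sh#2 cells (orange), MTF2 in shCT cells (blue) and the main transcript (black). Bars span each peak. CDKN1A carries peaks of all lists at its start and PHF19 peaks 17.1 to 31.5 kb upstream, the MTF2 bar of sh#2 cells ends 0.976 kb past the start, and CDKN1B and CDKN2C are empty.

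CDKN2A, which encodes p16 and the ARF protein, and its neighbor CDKN2B, which encodes p15, had no reads and no peaks. No read was counted for either gene in the 6 libraries, which at 95% confidence allows an expected total of up to 3 reads (a mean of 0.5), for counting error only. The nearest PHF19 peaks were 11.7 Mb away, the nearest MTF2 peaks of sh#2 cells 5.64 Mb from CDKN2A and 5.60 Mb from CDKN2B, and those of shCT cells 4.67 and 4.63 Mb. The stretch of chromosome 9 around both genes without a peak of any list was 12.3 Mb, rank 13 of 22183 such gaps in the genome. For PHF19 alone it was 33.2 Mb, rank 3 of 5598. For MTF2 it was 13.3 Mb in sh#2 cells, rank 14 of 18264, and 19.3 Mb in shCT cells, rank 6 of 12479.

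RNA levels were read within 3 Mb of CDKN2A, which is a part of the stretch without peaks, and many genes there were low. Of 44 genes of the table within 3 Mb of CDKN2A, 28 were listed at 0. Among the 34 protein-coding ones 22 were at 0, against 13.3% of 19031 coding genes of the whole table, and these included all 16 type I interferon genes, which are silent in most resting cells. RPS6, a ribosomal protein gene 2.59 Mb from CDKN2A, had 57342 normalized counts per kb, and ACER2, 2.57 Mb away, had 51.7. From there toward CDKN2A the levels per kb were 6.50 for SLC24A2, 5.98 for MLLT3, 7.54 for FOCAD, 1.23 for HACD4 and 0.365 for KLHL9 (from the 28.1 percentile of genes for KLHL9 to the 45.8 percentile for FOCAD). MTAP, the gene next to CDKN2A on that side, had 2.77 normalized counts per kb (mean 16.7), above 39.3% of genes. On the far side DMRTA1 and ELAVL2 were at 0, and LINC01239, a noncoding RNA gene 0.671 Mb away, had 2.29 normalized counts per kb (mean 5.38), above 38.1% of genes.

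CDKN2B-AS1, the antisense RNA ANRIL, stood higher per kb of its main transcript, which is short at 1439 bp. By mean count, without regard to length, it was close to SLC24A2, which had a mean of 71.5. CDKN2B-AS1 had 59.3 normalized counts per kb (mean 85.4) and a log2 fold change of 0.08 (SE 0.32, adjusted p = 0.999 in DESeq2). Its gene starts inside CDKN2A and runs over the whole of CDKN2B. Its annotated exons span 20420 bp over all transcripts, so the level per kb depends on the length chosen. Of these bases, 95.8% lie past the end of CDKN2B and 864 bp inside the spans of CDKN2A and CDKN2B. The table gives no value for each exon, so which part of the RNA the reads came from is not known. Whether the counting used strand is not stated, and with CDKN2A and CDKN2B at 0 the reads of CDKN2B-AS1 cannot have been counted to either of them. These values describe RNA and peaks, and the DNA copy number of the locus was not measured in the files.

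**Figure D4:**
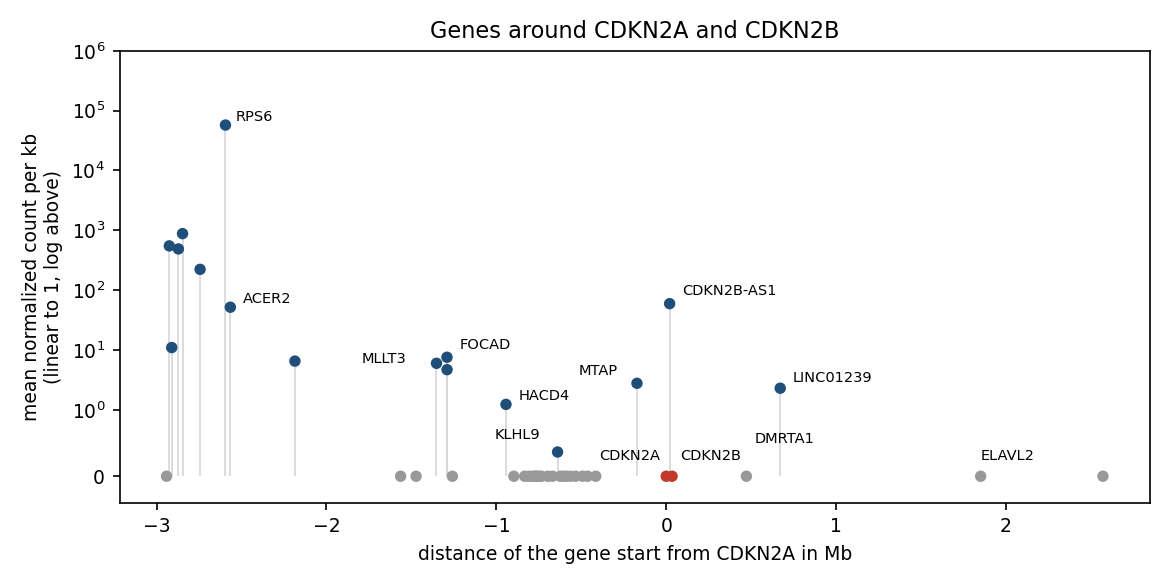
Mean normalized count per kb of the main transcript for the 44 genes of the table within 3 Mb of CDKN2A, on an axis that is linear to 1 and logarithmic above, by distance of the gene start from that of CDKN2A in Mb. Red points are CDKN2A and CDKN2B, grey points other genes at 0, blue points genes with reads. Levels drop between ACER2 at 51.7 and KLHL9 at 0.365, and CDKN2B-AS1 is at 59.3 over a main transcript of 1439 bp.

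The proteins that the inhibitors act on and answer to were then read from lists of known genes, none of which had a member at an adjusted p under 0.05 in DESeq2. Over all genes tested, 49.2% were above 0. At an unadjusted p under 0.05 in DESeq2, 4.61% of them were higher and 2.64% lower. By level, 37.8% of genes with means of 1000 to 10000 were above 0, and 20.4% of those at 10000 and above. Whether level has a part in the counts of these lists was not tested. Of the cyclins and CDKs that the inhibitors bind, 2 of 11 tested were above 0 and 9 below. CCNE1, an E-type cyclin whose CDK2 complex p21 and p27 inhibit, was the only gene of these at an unadjusted p under 0.05. Its log2 fold change was -0.42 (SE 0.21, unadjusted p = 0.0444, adjusted p = 0.736 in DESeq2). CCNE2, also an E-type cyclin, went the other way with 0.42 (SE 0.22, unadjusted p = 0.0614, adjusted p = 0.800 in DESeq2). Among the pocket proteins and E2F factors, 5 of 13 were above 0 and 8 below, 0 of them at an unadjusted p under 0.05.

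E2F target genes, which the pocket proteins repress when CDKs are inhibited, were below 0 in 18 of 19 cases, with a median log2 fold change of -0.27. CCNE1 and CCNA2 are in this list and also in that of cyclins and CDKs, so the lists are not separate. Only 2 reached an unadjusted p under 0.05, both lower, namely POLA1, the catalytic subunit of DNA polymerase alpha (-0.48, SE 0.24, unadjusted p = 0.0420, adjusted p = 0.724 in DESeq2), and CCNE1. These are highly expressed genes, with a median mean of 6824 normalized counts. Genes of that range, 1000 to 10000, were above 0 in 37.8% of cases with a median of -0.07, and genes of 10000 and above in 20.4% with a median of -0.17. Most genes in both ranges were also below 0, with medians of smaller size than that of the E2F targets. Whether level has a part in the values of the E2F targets was not tested.

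Of 15 genes that govern the stability of the inhibitors, 6 were above 0 and 9 below, where 49.2% of all genes tested were above 0. The lowest were SKP2, the F-box protein that marks p27, p21 and p57 for destruction, with a log2 fold change of -0.54 (SE 0.19, unadjusted p = 0.00389, adjusted p = 0.323 in DESeq2), and CUL1, the scaffold of the same ubiquitin ligase, with -0.52 (SE 0.24, unadjusted p = 0.0299, adjusted p = 0.666 in DESeq2). In the same list SKP1, CKS1B and RBX1 were near 0, with log2 fold changes of 0.01 (SE 0.18), 0.02 (SE 0.22) and -0.04 (SE 0.23). Protein levels of the inhibitors are not part of these files.

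Among 22 transcriptional regulators of the inhibitors, 12 were above 0 and 10 below, near the 49.2% above 0 over all genes tested. KLF4, an activator of CDKN1A, had a log2 fold change of 1.24 (SE 0.39, unadjusted p = 0.00137, adjusted p = 0.195 in DESeq2) at a mean of 56.3 normalized counts. Genes at the level of KLF4, with means of 10 to 100, had a median log2 fold change of 0.22 and were above 0 in 68.9% of cases. MYC, which represses CDKN1A and CDKN2B through ZBTB17 (MIZ1), had -0.66 (SE 0.22, unadjusted p = 0.00280, adjusted p = 0.282 in DESeq2).

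**Figure D5:**
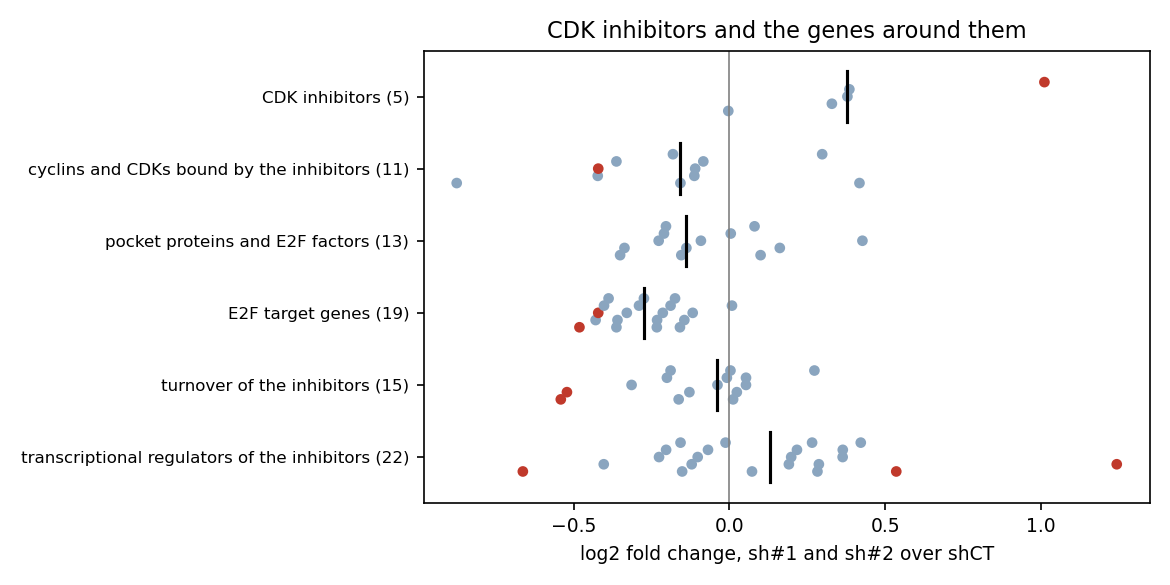
Log2 fold change (sh#1 and sh#2 over shCT) of the 5 expressed CDK inhibitors and of the tested genes of 5 lists, with the number tested in brackets. Points are genes, red at an unadjusted p under 0.05 in DESeq2 and blue otherwise, and black lines are medians. CCNE1 and CCNA2 are plotted both among cyclins and CDKs and among E2F target genes. The median was 0.38 for the inhibitors and -0.27 for E2F target genes, and CDKN1A is the red point at 1.01.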

How the data were processed

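K562 cells were profiled by RNA-seq (2 libraries each of sh#1, sh#2 and shCT) and ChIP-seq (1 library per condition). Per the labels and methods, the authors aligned RNA-seq reads with TopHat to hg19, kept uniquely mapped reads, counted them over RefSeq exons and deposited the table of their DESeq2 comparison. Its columns, deposited by the authors, are a mean normalized count over all libraries (treated as a score), log2 fold changes with standard errors and Wald statistics, and p-values with adjusted p-values. These columns of the authors' own comparison were the source of every RNA value, since no values per library and no depths were given. Fly chromatin was added to each ChIP as a spike-in, and reads were mapped uniquely with Bowtie to hg19 and dm3 joined. Peaks were called with MACS, and the authors deposited positions and a score for each. Every deposited peak was used. The study's further minimum of tags for PHF19 peaks could not be applied without tag counts, and no spike-in scaling was applied to the peak lists here. Tool versions and any use of strand in counting were not given in the sources used here. A hairpin other than shCT is also named in the track line above the PHF19 peaks, so the control used for peak calling is not known.

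Genes were placed on GRCh37 by GENCODE 44 (24053 of 27348 symbols, 1008 of them by a RefSeq synonym) and 321 symbols found at more than 1 place were left out. Main transcripts are those tagged canonical. Intervals of 95% were the log2 fold change plus or minus the normal quantile times the standard error. Overlaps required 1 bp. Scripts used Python 3.11.15, numpy 2.4.6, pandas 2.3.3, scipy 1.17.1 and matplotlib 3.10.9 and were tested on simulated data. The members and the lists were chosen with earlier results of these data known. Named genes were the members, PHF19, MTF2, up to 3 genes per list and direction with the lowest unadjusted p under 0.05, and genes with reads near CDKN2A. SLC24A2, KLHL9, LINC01239, ACER2, RPS6, MLLT3, FOCAD, HACD4, DMRTA1, ELAVL2, PANDAR, RAB44 and DINO were named after their values were seen. The same holds for RRAGA, HAUS6, PLIN2, DENND4C, CCNE2, CCNA2, SKP1, CKS1B and RBX1. Some genes that this rule takes are not reported here. PHF19 ChIP-seq of depleted cells and the IgG control were not used here.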

Additional observations from a re-analysis of the deposited data

How the results depend on the processing

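At an adjusted p under 0.1, and at an unadjusted p under 0.05, 1 member (CDKN1A) was called instead of 0. Adjusted over every gene with a p-value, over genes with a mean of at least 10 and over those of at least 100, the adjusted p of CDKN1A was 0.0966, 0.0667 and 0.0647 (DESeq2 p-values), and 0 members were called. Centring on the median gene shifted values by 0.0062 and turned CDKN1C to 0.0024, and no other member changed sign. With only peaks at or above the median score of their list, 1 member kept a PHF19 peak (CDKN1A), 0 an MTF2 peak in sh#2 cells and 1 (CDKN1A) an MTF2 peak in shCT cells. The peak-free stretch around CDKN2A and CDKN2B was then 27.0 Mb for MTF2 in sh#2 cells, 29.1 Mb for MTF2 in shCT cells and 27.0 Mb over all lists. Promoters alone, 10 kb on either side, the longest coding transcript and an overlap of 500 bp left 2 members in each list. With peaks at or above the median score, the MTF2 ratio at CDKN1A has no value, because its peak in sh#2 cells drops out. No paired analysis was possible because the table holds no values per library, and for the same reason no replicate could be left out and 1 library may decide the value of CDKN1A unseen. The ChIP-seq has 1 library per condition.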

Other observations

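Genes that share part of their name with the inhibitors were read beside them. CDKN3, which encodes a phosphatase that acts on CDKs, had a log2 fold change of 0.16 (SE 0.22) at a mean of 1326 normalized counts. With CDKN2AIP, CDKN2AIPNL and CDKN2B-AS1 it made 4 tested genes, of which 2 were above 0 and 2 below, 0 of them at an unadjusted p under 0.05 in DESeq2.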
